A study of Danio rerio with 53 samples.

Results

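The gene il7r (ENSDARG00000078970) encodes the alpha chain of the receptor for interleukin 7, and it was read as 1 of the 14423 genes in the deposited counts of lymphocytes sorted from zebrafish. Its identifier is the row that maps to the symbol il7r, and the gene was chosen with earlier results of these data known. The series compared sorted populations in a study of the thymus and its involution, and its 53 libraries covered 10 named cell types in 19 groups of a line and a population. Every fish carried a red and a green reporter transgene, in 4 combinations: rag2RFP-cd79bGFP, rag2RFP-cd79aGFP, lckmCherry-cd79bGFP and lckmCherry-cd79aGFP, called here the rag2-cd79b, rag2-cd79a, lck-cd79b and lck-cd79a lines. The promoter of lck drives its reporter in T cells and those of cd79a and cd79b drive theirs in B cells, while that of rag2 is active where antigen receptor genes are being rearranged. The labels name no treatment and give neither ages nor the number of fish behind a library, so that p-values measure the spread between these libraries, which may be technical.

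In the thymus (29 libraries) the rag2-cd79a line gave T Stage I (6 libraries, 3 each of the sorted populations T2 and T3), both rag2 lines gave T Stage II (3 libraries each), the lck-cd79a line gave T Stage III and T Stage IV (3 libraries each), and all 4 lines gave thymic B cells (11 libraries). From the marrow (24 libraries), which in fish lies in the kidney, both lck lines gave Early T-committed cells (3 libraries each). The rag2 lines gave Early B-committed cells (3 libraries), B Stage I and B Stage II (6 libraries each), and B Stage III came from the rag2-cd79b line (3 libraries). Since T Stage III, T Stage IV and Early T-committed cells came from lck lines and all marrow B stages from rag2 lines, line and cell type cannot be told apart where a comparison crosses them.

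Interleukin 7 is made by stromal cells of lymphoid organs and is read by lymphocytes through a receptor of the alpha chain and the common gamma chain, which is shared with the receptors for interleukins 2, 4, 9, 15 and 21. Binding of the cytokine brings together the kinases Jak1 and Jak3, which activate the factor Stat5, and the cell receives a signal to survive and divide. In mice the receptor is needed by early T cells in the thymus and by B precursors in the bone marrow, and in zebrafish the loss of il7r is known to reduce the T cells of the thymus.

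The libraries held 7295854 to 18778603 counts (median 11912824). A total of 3 counts, taken here as the limit that a count of 0 allows, came to at most 0.411 CPM, the unit used throughout for a gene's counts scaled to the total of its library. The exact 95% intervals are wider, and reach 0.476 CPM for a library at 0. Between 3804 and 11360 genes were detected in a library, and the median correlation of log2 CPM across genes between replicate libraries was 0.734. Genes that stood high in some replicates could be at 0 in another (itk in Early T-committed cells ran from 0 to 302 CPM), and limits and intervals given here cover counting error only. In the RefSeq annotation of another assembly (GRCz12tu) the gene capslb overlaps il7r. The strand setting of the counting is not given in the sources used here, so reads of the 2 genes could not be separated, and capslb was not analysed here. Of the T cell markers, the coreceptor gene cd8a and the kinase gene lck had counts in every library of the T stages and of Early T-committed cells. The B cell marker cd79a had counts in every library of the B populations.

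Across the 10 cell types il7r followed the T lineage. It was read in all 18 libraries of the thymic T stages, from 22.4 to 268 CPM with a median of 149 CPM, and in all 6 Early T-committed libraries. The 9 libraries of Early B-committed cells and B Stage I held not a single il7r count. Among all 53 libraries 23 were at 0 and 28 had more than 3 counts. The order of the mean levels was T Stage II (173 ± 76.3 CPM, SD, n = 6), T Stage I (165 ± 28.4, n = 6), T Stage IV (94.8 ± 90.3, n = 3), T Stage III (66.5 ± 15.2, n = 3) and Early T-committed cells (59.1 ± 47.3, n = 6). The B populations came after them: B Stage III (11.9 ± 20.5, n = 3), B Stage II (2.44 ± 5.91, n = 6), thymic B cells (1.83 ± 4.27, n = 11), then B Stage I and Early B-committed cells at 0. Each neighbouring pair in this order had overlapping ranges, so no step between neighbours exceeded the spread of the libraries. In sorted bulk samples, fewer cells that use a gene and less of its RNA in each cell cannot be told apart.

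**Figure D1:**
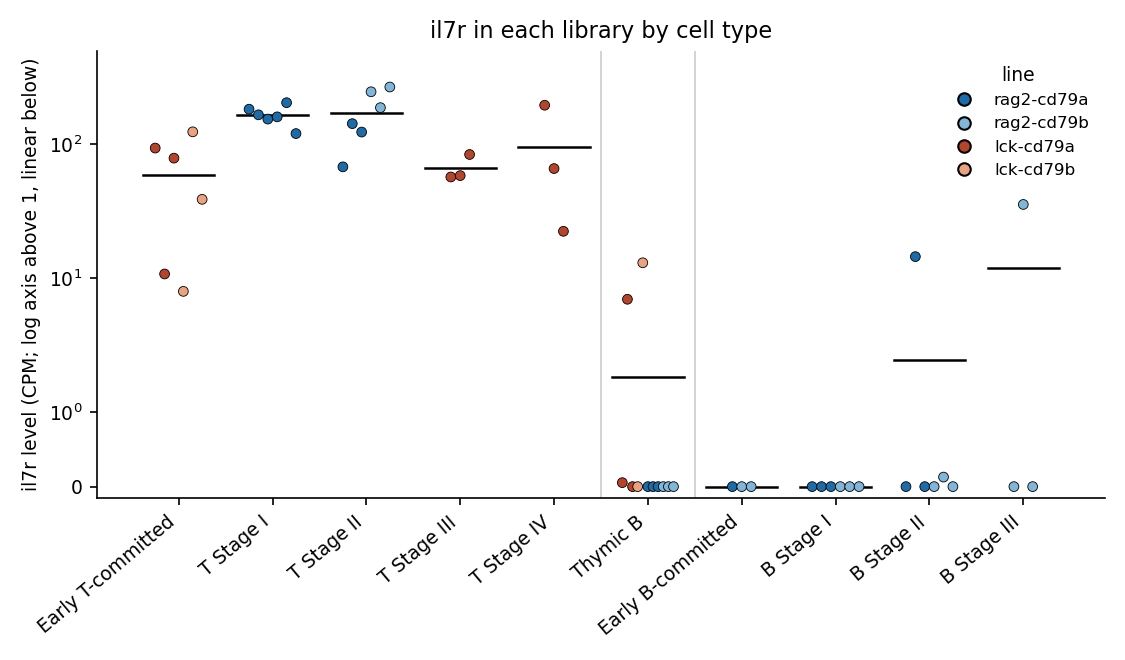
Level of il7r in CPM (vertical axis, logarithmic above 1 and linear below) in each of the 53 libraries by cell type, coloured by line, with a bar at each mean. The thymic T stages lie between 22.4 and 268 CPM, while 23 libraries, all of B populations, lie at 0.

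T Stage II held the highest mean level over its 2 lines, a rank that turned within rag2-cd79a, the line that also gave T Stage I. Its rag2-cd79b libraries stood at 247, 188 and 268 CPM and its rag2-cd79a libraries at 67.9, 143 and 124 CPM. The libraries of the first line all lay above those of the second, yet the fitted difference of 1.03 on the log2 scale (SE 0.85) did not pass the test (edgeR adjusted p 1). In that comparison 0% of genes passed by edgeR, and 419 had an unadjusted p under 0.05. In T Stage I population T2 stood at 183, 166 and 154 CPM and population T3 at 160, 205 and 120 CPM. These 2 populations overlapped fully, with a fitted log2 difference of 0 (SE 0.84, edgeR adjusted p 1, 0% of genes called, 397 at an unadjusted p under 0.05).

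Within the rag2-cd79a line both T Stage II and T Stage I libraries also overlapped in il7r, with means of 111 ± 38.9 CPM and 165 ± 28.4 CPM (SD, n = 3 and 6). The fitted log2 difference was -0.51 (SE 0.74, edgeR adjusted p 1), in a comparison where 0% of genes passed by edgeR and 707 had an unadjusted p under 0.05. DESeq2 called 880 genes there and did not call il7r, with a log2 difference of -0.57.

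T Stage III libraries, from the lck-cd79a line, were close together at 57.1, 58.4 and 84 CPM. They lay below all 6 T Stage I libraries and overlapped the rag2-cd79a T Stage II libraries. Against the latter the log2 difference was -0.51 (SE 0.86, edgeR adjusted p 1), where 0.118% of genes passed. This comparison crosses lines. With the line difference in thymic B cells taken away, the value became -8.52 (edgeR adjusted p 0.925), because il7r had counts in the thymic B cells of the lck-cd79a line and none in those of the rag2-cd79a line, so that its size is no measured fold.

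T Stage IV was the most uneven thymic T population, at 196, 66 and 22.4 CPM in replicates 48, 49 and 50. Counting error was small beside this spread, since the highest library had 2378 il7r counts (exact 95% interval 188 to 204 CPM) and the lowest 406 (20.3 to 24.7 CPM). In the same 3 libraries the 9 T cell markers summed to 3588, 3537 and 2673 CPM, the same order as il7r over a narrower range. The markers cd8a (1304, 1410 and 865 CPM), cd4-1 (337, 396 and 239 CPM), zap70 and itk were lowest in replicate 50, and lck (724, 488 and 557 CPM) and cd8b (710, 456 and 627 CPM) were lowest in replicate 49. Their part in the il7r level was not tested. Against T Stage III of the same line il7r had a log2 difference of 0.28 (SE 0.86, edgeR adjusted p 1, 0.0763% of genes called), and by -0.65 without replicate 48.

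Early T-committed cells of the marrow held il7r over a wide range. The lck-cd79b libraries stood at 7.99, 124 and 38.9 CPM in replicates 21, 22 and 23, and the lck-cd79a libraries at 93.8, 10.8 and 78.9 CPM in replicates 54, 55 and 56. Each line thus had a low library, and the lines overlapped (log2 difference -0.5, SE 0.9, edgeR adjusted p 0.968, 1.45% of genes called; 0.02 without replicate 21). The low library 55 also held the lowest sum of 9 T cell markers of the 6, at 321 CPM, with zap70 at 9.91 CPM and cd8a at 36.2 CPM. Library 21 did not share this, with a marker sum of 1374 CPM, lck at 324 CPM and cd8a at 344 CPM beside its 62 il7r counts (exact 95% interval 6.12 to 10.2 CPM).

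Markers of other cells were also present in these marrow sorts. The summed level of 12 NK and innate lymphoid markers was 858 to 1786 CPM in Early T-committed libraries against 168 to 532 CPM in the thymic T stages. Of these, the cytotoxic granule gene nkl.2 stood at 449 CPM on average and had no count in T Stage II or T Stage IV, and the perforin gene prf1.9 stood at 114 CPM and had no count in T Stage II, III or IV. By edgeR, T Stage III was lower than Early T-committed cells in 3 of the 12 and higher in 1, beside 0.596% and 0.444% of all genes. T Stage IV was lower in 4 and higher in 1, where 2.2% of all genes were called in either direction and 1.51% as lower. The remaining 8 and 7 markers were not called. The 9 myeloid markers summed to 429 to 1821 CPM, against at most 81.9 CPM in a thymic T library. For the 7 erythroid and thrombocyte markers the sums were 1279 to 17651 CPM, overlapping the 175 to 1703 CPM of T Stage I. The other thymic T stages held at most 216 CPM of them, and Early B-committed cells of the marrow 1920 to 9902 CPM. The 11 B cell markers summed to 167 to 590 CPM, against at most 51.8 CPM in a thymic T library. Their sum was 474 CPM in library 55, low in il7r, and 590 CPM in library 22, which held the most il7r. In libraries 21 and 22 only 1 of the 11 had more than 3 counts. Neither library had a count of cd79a, cd79b, pax5 or igl3c3. In library 55, 8 of the 11 had more than 3 counts. That sum is therefore no measure of B cells alone. Kidney tubule and thymic stroma markers summed to 321 to 861 and 169 to 865 CPM, against at most 151 and 205 CPM in a thymic T library. The part of all these cells in the il7r level was not tested.

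The thymic stages of the lck-cd79a line were also set against Early T-committed cells of the same line, and neither passed the test in il7r. The log2 differences were 0.22 for T Stage III (SE 0.87, edgeR adjusted p 1, 1.04% of genes called) and 0.5 for T Stage IV (SE 0.87, edgeR adjusted p 0.943, 2.2% called). Leaving out a library turned their signs, to -0.27 without Early T-committed replicate 55 and to -0.46 without T Stage IV replicate 48. A missed threshold at this spread does not show that the levels were equal.

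In the marrow B lineage il7r was not detected at this depth in the first stages and was read in single libraries of the later ones. All 3 Early B-committed and all 6 B Stage I libraries were at 0, and there was no difference to test between them (1.05% of genes called in that comparison). In B Stage II, replicate 43 of the rag2-cd79a line held 191 counts, or 14.5 CPM (exact 95% interval 12.5 to 16.7), replicate 14 of the rag2-cd79b line held 1 count, and the other 4 libraries were at 0. In B Stage III, replicate 17 held 407 counts, or 35.6 CPM (32.2 to 39.2), and replicates 16 and 18 were at 0. A level above 3 counts was thus seen in 2 of the 15 libraries of the numbered B stages.

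With 1 library behind each of these means, the steps between B stages did not pass the test. Within rag2-cd79b the B Stage III to B Stage II log2 difference was 8.31 (SE 3.35, edgeR adjusted p 0.514), where 0.0277% of genes were called, and -2.04 without replicate 17, when 1 count was left in all. For B Stage II against B Stage I the edgeR adjusted p was 1, with 1.12% of genes called. DESeq2 called il7r in both comparisons (adjusted p 0.00282 and 1.02e-22), with the same single libraries holding the counts.

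T cell markers were low in the B libraries that held il7r. B Stage III replicate 17 had no count of lck, zap70, itk, cd4-1, cd8a or cd8b, and neither had replicates 16 and 18. Its T marker sum was 14.8 CPM, beside 37.2 and 16.1 CPM in replicates 16 and 18. In each of these libraries the sum was the costimulatory receptor gene cd28 alone. Early B-committed libraries held cd28 at 118 to 156 CPM, so it is no measure of T cells alone. Replicate 17 also held the most runx3 of its group, at 29.3 CPM against 6.49 and 4 CPM. B Stage II replicate 43 held 7.14 CPM of lck and 14.4 CPM of runx3, and its T marker sum of 12.3 CPM was the highest of the 6 libraries. Its myeloid and erythroid sums were also the highest of B Stage II, at 1468 and 2951 CPM. The myeloid sum includes SPI1, a factor gene of myeloid and B cells that ran from 258 to 1115 CPM in B Stage II. That sum is therefore no measure of myeloid cells alone. The part of myeloid and erythroid cells in the il7r count was not tested.

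Thymic B cells held il7r counts in 3 libraries, all of lck lines. All 6 libraries of the rag2 lines were at 0. Of the 5 libraries of the lck lines, replicate 20 (lck-cd79b) stood at 13.1 CPM with 117 counts, replicate 52 (lck-cd79a) at 6.97 CPM with 107 counts, replicate 51 (lck-cd79a) had 1 count, and replicates 19 (lck-cd79b) and 53 (lck-cd79a) were at 0. The difference between lck and rag2 lines did not pass the test (edgeR adjusted p 0.397, unadjusted 0.0462, 0.52% of genes called), although DESeq2 called it (adjusted p 1.79e-35). The rag2-line libraries detected 3804 to 6740 genes and those of the lck lines 6177 to 8911. Replicates 20, 51 and 52, with il7r counts, detected 7064, 8911 and 8359, and replicates 19 and 53, at 0, 6177 and 7893. The part of this in the il7r difference was not tested.

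Markers of other cells differed between these thymic B sorts too. In the lck lines 1 of 9 T cell markers (zap70, log2 difference 4.26, SE 1.07, edgeR adjusted p 0.0367) and 2 of 8 thymic stroma markers were higher, the keratin genes krt4 and krt5 (edgeR adjusted p 0.0493 each), beside 0.395% of all genes. The stroma markers summed to 235 to 655 CPM in the lck lines and to 0 to 119 CPM in the rag2 lines. In the marrow they summed to 169 to 865 CPM in Early T-committed cells and 18.9 to 311 CPM in B Stage II. That sum is therefore no measure of thymic stroma alone. The T markers summed to 67.3 to 113 CPM in the lck lines, and in the rag2 lines to 12.8 to 49.2 CPM in 5 libraries and 142 CPM in replicate 4, which had no il7r count. In replicate 4 only 3 of the 9 had more than 3 counts, among them itk (56 CPM) and cd28 (12.9 CPM). It had no count of lck, zap70, cd4-1, cd8a or cd8b, and detected 3804 genes, the fewest of all libraries. Replicate 20 held a T marker sum of 112 CPM, with lck at 47.2, zap70 at 39.2 and itk at 25.4 CPM. Replicate 52 held 109 CPM without an lck count, with cd8a at 20.3, zap70 at 20.1 and itk at 14.3 CPM. Replicate 19, at 0 for il7r, held 113 CPM, with lck at 66.2, zap70 at 44.4 and itk at 0.229 CPM. Replicates 51 and 53 had no itk count. Over all 11 thymic B libraries this sum ran from 12.8 to 142 CPM, against 1414 to 4060 CPM in the thymic T stages. The part of T cells and stroma in the il7r of thymic B cells was not tested.

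**Figure D2:**
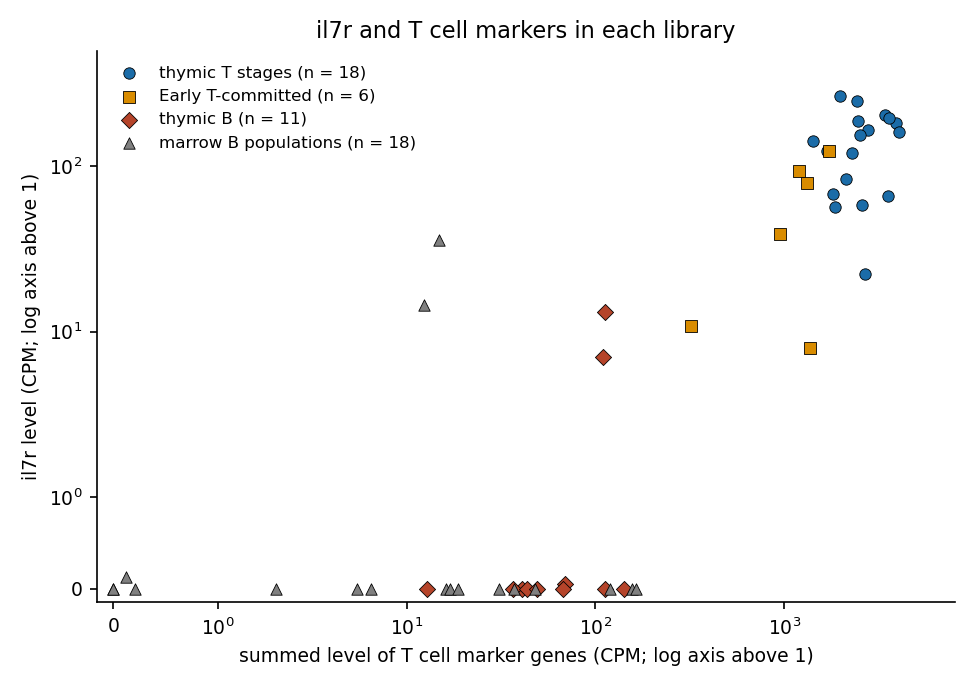
Level of il7r against the summed level of 9 T cell markers in each library, both in CPM on axes that are logarithmic above 1, with a symbol for each kind of population. Thymic T libraries lie at the upper right, and 2 marrow B libraries hold 14.5 and 35.6 CPM of il7r at marker sums of 12.3 and 14.8 CPM.

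Thymic B cells of the rag2 lines were also set against marrow B cells. Against B Stage I both sides were at 0 in all libraries and there was no difference to test (6.03% of genes called in that comparison), and against B Stage II the edgeR adjusted p was 1 (1.32% called). With thymic B cells at 0, the counts bound the difference to at least 7.19-fold lower than the B Stage II mean, which rests on replicate 43. DESeq2 called it (adjusted p 1.94e-25) on the counts of that library.

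The T populations were set against Early B-committed cells, B Stage I and thymic B cells, and il7r was higher in the T population in all 9 comparisons that were run, each past the test. None of the T populations was tested against B Stage II or B Stage III, and B Stage III replicate 17 (35.6 CPM) lay above T Stage IV replicate 50 (22.4 CPM). In T Stage II il7r ran from 67.9 to 268 CPM with a median of 165 CPM, and B Stage I, a marrow population of the same lines, was at 0 in all 6 libraries. The T Stage II level was at least 768-fold higher, with an edgeR adjusted p of 9.33e-11. This bound sets the T Stage II mean against 3 counts in each B Stage I library and covers counting error alone. In this comparison 2.43% of genes passed as higher and 3.4% as lower. The call was made within each line too, at an edgeR adjusted p of 0.000123 in rag2-cd79a and 5.11e-06 in rag2-cd79b. Whether the size differed between these lines could not be tested, since B Stage I was at 0 in both.

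T Stage I, at 120 to 205 CPM, was at least 735-fold above B Stage I (edgeR adjusted p 6.74e-06, 1.57% of genes called as higher). T Stage II was at least 627-fold higher than Early B-committed cells (edgeR adjusted p 0.000157, 1.03% higher), a call that rested on 3 libraries at 0 and was not made within the rag2-cd79a line (edgeR adjusted p 0.223), which held 1 of them. Against thymic B cells of the same lines, T Stage II il7r was at least 510-fold higher at an edgeR adjusted p of 2.52e-09 (6.32% higher) and T Stage I at least 532-fold higher (edgeR adjusted p 4.72e-05, 1.93% higher). None of these ranges overlapped. The thymic B libraries of the rag2 lines detected 3804 to 6740 genes and those of T Stage I and T Stage II 7608 to 11360, and the bounds cover counting error alone.

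In the lck-cd79a line thymic B cells held some il7r, and the fold changes against them could be fitted. The log2 difference was 4.72 for T Stage III (SE 1.24, edgeR adjusted p 0.0158, 0.61% of genes called as higher) and 5 for T Stage IV (SE 1.23, edgeR adjusted p 0.00578, 0.679% higher). The lowest T libraries, at 57.1 and 22.4 CPM, lay above the highest thymic B library, at 6.97 CPM. Both calls were lost without thymic B replicate 51 (adjusted p 0.147 and 0.074) or 53 (0.147 and 0.0755), and that of T Stage IV also without its replicate 48 (0.118). Without replicate 52, which held most of the thymic B counts, 1 thymic B count was left and the fitted differences were 10.55 and 10.83. Neither call was made by DESeq2 (adjusted p 0.0866 and 0.0627).

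Early T-committed cells were higher in il7r than thymic B cells of the lck lines (log2 difference 3.65, SE 0.94, edgeR adjusted p 0.00516, 2.39% of genes called as higher). Here the ranges overlapped, since the lowest Early T-committed library held 7.99 CPM and the highest thymic B library 13.1 CPM. The difference was 4.5 within the lck-cd79a line (edgeR adjusted p 0.0231) and 2.8 within the lck-cd79b line (edgeR adjusted p 0.253), and the test between the lines gave an edgeR adjusted p of 1 (0.0416% of genes called). The call was lost without thymic B replicate 19 (adjusted p 0.076), and the difference was 8.26 without thymic B replicate 20 and 6.56 without replicate 52. Early T-committed cells also held at least 214 times the il7r of Early B-committed cells of the marrow, with an edgeR adjusted p of 0.00432 (1.68% of genes higher). This last comparison crosses from lck to rag2 lines, and the call was lost when the other groups were left out of the fit (adjusted p 0.122).

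**Figure D3:**
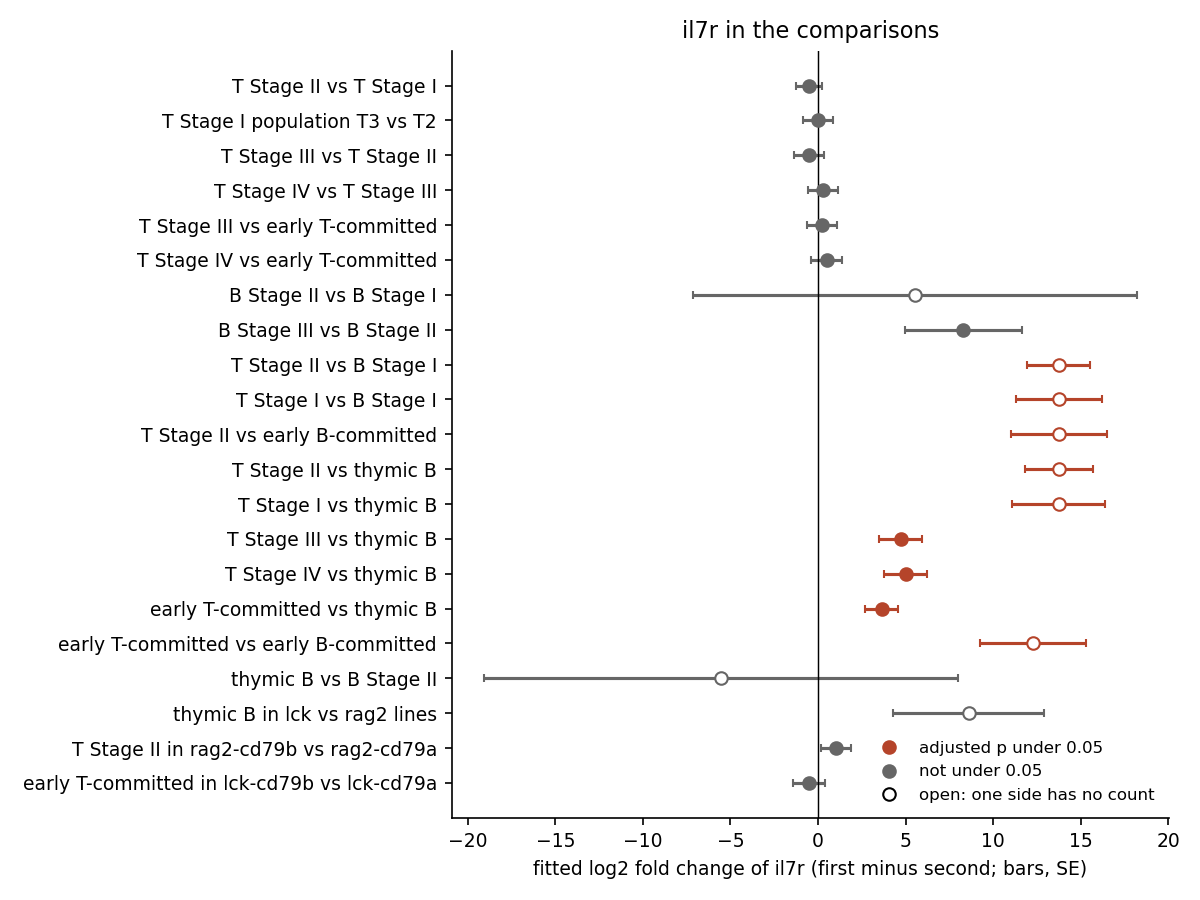
Fitted log2 fold change of il7r (first population minus second), coloured by whether the edgeR adjusted p was under 0.05. Bars are 1 SE, taken as the absolute size over the square root of the F statistic. Comparisons at 0 on both sides and tests of whether a difference varied between lines are left out. Open circles mark comparisons with no il7r count on one side, whose fitted size depends on a prior count and is no measured fold. The comparisons of T with B populations lie on the right and those among T populations near 0. Those among B populations lie on both sides, from -5.54 to 8.61, and none passed.

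The partners of the receptor were measured in the same libraries. Of 16 genes listed for interleukin 7 receptor signalling 12 had rows in the counts. The cytokine genes il7 and tslp, the related receptor gene crlf2 and akt1 were not analysed here. Of the 11 other than il7r, 2 were higher in T Stage II than in B Stage I (il2rga and il2rgb) and 1 was lower (tyk2), beside 2.43% and 3.4% of all genes. Their median log2 difference was 0.01 beside -0.08 over all genes tested.

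The zebrafish has 2 genes for the common gamma chain. The first, il2rga (ENSDARG00000068858), ran from 23.9 to 84.6 CPM in T Stage II with a median of 32.4 CPM, and from 0 to 8.07 CPM in B Stage I with a median of 0.0648 CPM. The groups did not overlap, and the log2 difference was 6.29 (SE 1.55, edgeR adjusted p 0.0022). The second, il2rgb (ENSDARG00000053702), ran from 4.32 to 52 CPM in T Stage II, median 18 CPM, and from 0 to 1.64 CPM in B Stage I, median 0.916 CPM (log2 difference 4.61, SE 1.38, edgeR adjusted p 0.0215). Both chains were thus low in B Stage I, where il7r was at 0.

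Elsewhere il2rga was also read without il7r. Early B-committed libraries, at 0 for il7r, held il2rga at 0, 15.4 and 40.2 CPM, and thymic B libraries held it at 0 to 92 CPM. B Stage III replicate 17, with 35.6 CPM of il7r, had no il2rga count and 1.05 CPM of il2rgb. Against thymic B cells of the rag2 lines T Stage II was higher in il2rgb (log2 difference 6.58, SE 2.3, edgeR adjusted p 0.0472), while il2rga did not pass the test. Among the T populations the mean of il2rgb was 20.9 ± 18 CPM in T Stage II and 3.01 ± 2.89 CPM in T Stage IV, and of il2rga 41 ± 22.7 and 14.4 ± 15 CPM (SD, n = 6 and 3).

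The kinases and the factor below the receptor showed no such division. The kinase gene jak1, whose product binds the alpha chain, was read in every library, with means from 293 ± 69 CPM in B Stage III (n = 3) to 550 ± 142 CPM in T Stage I (n = 6), and its log2 difference between T Stage II and B Stage I was 0.09 (SE 0.35, edgeR adjusted p 1). The gene jak3, whose product binds the gamma chain, had means of 5.12 to 20.2 CPM in the 10 cell types with libraries at 0 in 9 of them (log2 difference -0.2, SE 1.05, edgeR adjusted p 1). The Stat5 gene stat5a had means of 1.43 to 26.9 CPM, and its log2 difference was 0.62 (SE 0.96, edgeR adjusted p 0.997). The other, stat5b, reached at most 32.5 CPM in a library and was at 0 in all T Stage III libraries. A related kinase gene of other cytokine receptors, tyk2, was lower in T Stage II (median 28.6 CPM, range 2.21 to 66.6) than in B Stage I (median 162 CPM, range 97.4 to 297), with a log2 difference of -2.83 (SE 0.54, edgeR adjusted p 2.35e-05). It was also lower in T Stage II than in thymic B cells (log2 difference -2.64, SE 0.54, edgeR adjusted p 9.45e-05). The remaining stat3, pik3cd, pik3r1 and akt2 did not pass the test between T Stage II and B Stage I.

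**Figure D4:**
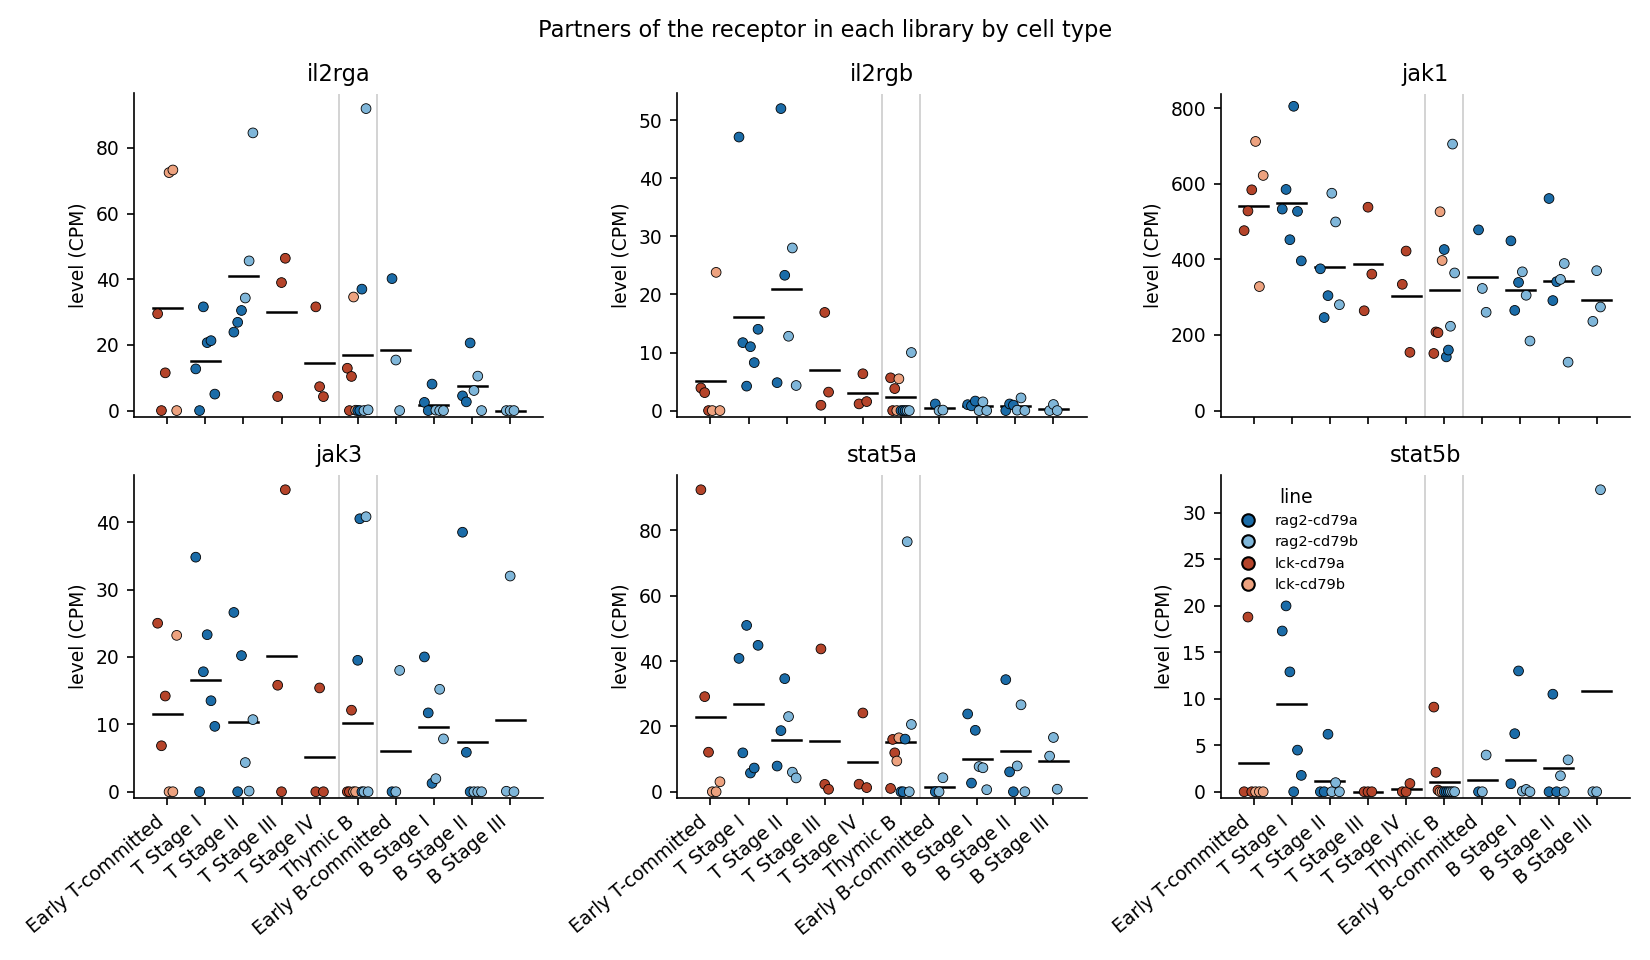
Levels in CPM of the gamma chain genes il2rga and il2rgb, of jak1 and jak3 and of stat5a and stat5b in each library by cell type, coloured by line, with a bar at each mean and linear axes that differ between panels. In T Stage II il2rga runs from 23.9 to 84.6 CPM, and jak1 is read in all libraries.

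Genes listed with the gamma chain family of receptors were read too. Of 8 listed genes 4 had rows, il2rb, il13ra1, il15ra and il21r.1. Only il2rb and il21r.1 are described here. The beta chain gene il2rb (ENSDARG00000075720) is shared by the receptors for interleukins 2 and 15. It is also 1 of the 12 NK and innate lymphoid markers whose sum was given above for Early T-committed cells. In those cells il2rb ran from 78.4 to 328 CPM with a median of 152 CPM, and it was at 0 in 10 of 11 thymic B libraries. Its level in Early T-committed cells was higher than in thymic B cells of the lck lines (edgeR adjusted p 7.9e-07) and higher than in T Stage IV (edgeR adjusted p 0.00033, 1.51% of genes lower in T Stage IV), in which it had no count. In T Stage II il2rb reached at most 10 CPM. The interleukin 21 receptor gene il21r.1 (ENSDARG00000069961) was higher in T Stage II than in B Stage I (log2 difference 7.49, SE 1.77, edgeR adjusted p 0.00114) and had its highest mean in Early T-committed cells, at 166 ± 111 CPM (SD, n = 6).

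Of 28 listed targets and feedback genes of the receptor 16 were found, in 17 rows, and none of the rows passed the edgeR test in T Stage II against B Stage I (1 had an unadjusted p under 0.05), where 5.84% of all genes passed in either direction. Their median log2 difference was 0.14 beside -0.08 over all genes. Against thymic B cells T Stage II was lower in 2 of the 17: the survival gene bcl2a (log2 difference -2.36, SE 0.7, edgeR adjusted p 0.0143) and the death-promoting gene bbc3 (-4.35, SE 1.1, edgeR adjusted p 0.00239), where 9.98% of all genes passed and 3.66% passed as lower. The feedback inhibitor gene cish, which Stat5 is known to induce in mammals, was higher than in thymic B cells in T Stage III (log2 difference 4.89, SE 1.28, edgeR adjusted p 0.0154) and in Early T-committed cells (3.7, SE 0.96, edgeR adjusted p 0.00548). It was the 1 row of 17 called higher in each of these comparisons, beside 0.61% and 2.39% of all genes. In Early T-committed cells 3 of the 17 were lower, beside 3.52% of all genes: bbc3 (edgeR adjusted p 0.00232), the death-promoting gene bada (edgeR adjusted p 0.0319) and a row of the cell cycle gene CCND2 (CCND2_ENSDARG00000051748, log2 difference -3.03, SE 0.55, edgeR adjusted p 1.34e-05). The levels of cish did not follow il7r among T populations. The mean of cish was lowest in T Stage II (25.6 ± 16.2 CPM) and highest in Early T-committed cells (103 ± 86.5 CPM, SD, n = 6 each). For il7r these means were 173 and 59.1 CPM. Early T-committed replicate 21, with 7.99 CPM of il7r, held the most cish of its group, at 247 CPM.

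Factors reported to regulate the gene in mammals were read next to it, from a list of 36 of which 28 had rows, 30 rows in all. In T Stage II against B Stage I 8 were higher and 6 lower, beside 2.43% and 3.4% of all genes, and their median log2 difference was -0.07. The T lineage factor genes runx3 (log2 difference 11.26, SE 0.78, edgeR adjusted p 7.73e-29), bcl11ba (12.1, SE 0.8, 7.4e-28) and gata3 (11.82, SE 1.16, 5.79e-17) were the most clearly higher. T Stage II libraries held runx3 at 741 to 1471 CPM, bcl11ba at 1116 to 2052 CPM and gata3 at 234 to 934 CPM, and no B Stage I library exceeded 6.79, 21.1 and 4.46 CPM. Also higher were tcf7 (edgeR adjusted p 0.000177), a factor of early T cells, the forkhead gene foxo3a (3.56, SE 0.83, 0.00099) and the progenitor factor gene myb (2.33, SE 0.57, 0.0019).

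The lower ones included genes of the B lineage. The factor gene pax5 ran from 244 to 339 CPM in B Stage I and had no count in any thymic T library, an ebf1 copy (EBF1_ENSDARG00000099849) was absent from the counts of all T Stage II libraries and ran from 72.4 to 259 CPM in B Stage I, and SPI1, a factor of myeloid and B cells, stood at 367 ± 152 CPM in B Stage I and 3.18 ± 4.71 CPM in T Stage II (SD, n = 6 each). Their edgeR adjusted p values were 7.37e-19, 1.99e-14 and 2.26e-09. The quiescence factor gene klf2a was lower too (log2 difference -3.22, SE 0.66, edgeR adjusted p 0.000103). Within the T lineage klf2a ran from 74.5 to 143 CPM in Early T-committed cells and from 0 to 9.01 CPM in T Stage III (log2 difference -5.07, SE 1.09, edgeR adjusted p 0.00216), where 0.596% of genes were called as lower. The reverse held for gata3, which was 4.17 higher in T Stage III than in Early T-committed cells (SE 0.88, edgeR adjusted p 0.00201, 0.444% of genes higher).

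In thymic B cells runx3 was read without il7r. Thymic B cells held runx3 at 55.6 to 480 CPM in all 11 libraries, while 8 of those libraries had no il7r count. The log2 difference of runx3 between T Stage II and thymic B cells of the same lines was 1.56, with an SE of 0.39 (edgeR adjusted p 0.00262).

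The genes whose pattern was most like that of il7r were found by Pearson's r of log2(CPM + 1) over the 53 libraries, among 10457 genes with a mean of at least 10 CPM in some cell type. These values describe libraries that fall into T and B populations and share their depth between genes. The 5 highest were cd8a (r = 0.922), ENSDARG00000109231 (0.921), the diacylglycerol kinase gene DGKA (0.906), ENSDARG00000099869 (0.896) and the ATP-gated channel gene p2rx1 (0.892). Over the 10 cell type means the values were 0.906 to 0.937. ENSDARG00000109231 was read at 430 CPM in T Stage I and 223 CPM in T Stage II on average and had no count in any B population, and p2rx1 stood at 226 CPM in T Stage II with none in the B populations either.

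Least like it were the B cell adaptor gene blnk (r = -0.904) and the pax5 row, named PAX5 in the symbol table (-0.911). The kinase genes zap70 and lck came close behind the first 5, at ranks 8 and 11 (0.877 and 0.864). Within the pathway the likeness over libraries was lower: 0.682 for il2rgb (rank 137), 0.424 for il2rga, 0.284 for stat5a, 0.229 for jak3 and 0.053 for stat5b. Over the 10 cell type means it was 0.839 for il2rgb, 0.449 for il2rga, 0.62 for stat5a, 0.412 for jak3 and -0.05 for stat5b. For zap70 and lck these were 0.813 and 0.891. The recombination gene rag2, read in both T and B precursors, gave 0.186 over libraries and 0.025 over cell types.

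**Figure D5:**
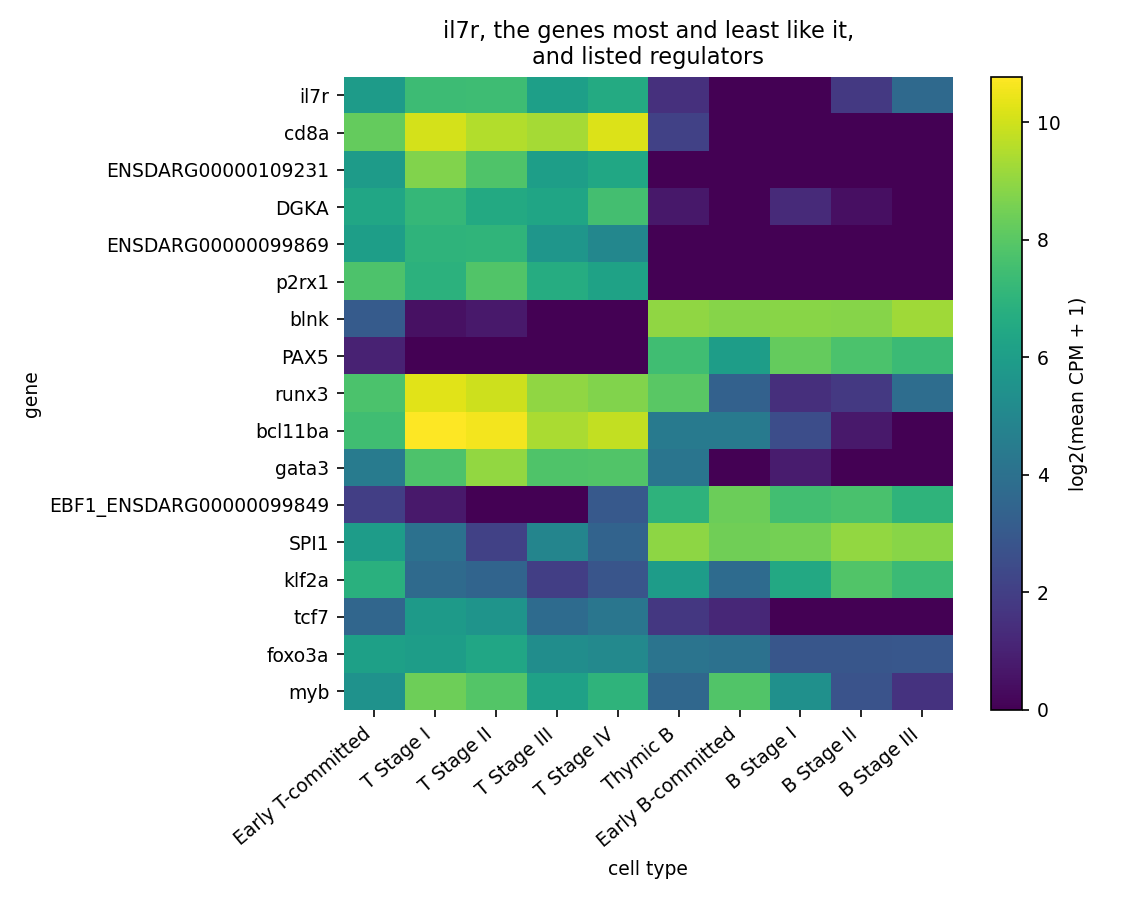
Mean level of each gene in each cell type as log2(mean CPM + 1), for il7r, the 5 genes most like it, the 2 least like it and the regulators named in the text, with pax5 shown once as PAX5. The genes like il7r are bright in the 5 T populations and dark in the 5 B populations, and runx3 is also bright in thymic B cells.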

How the data were processed

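RNA from 53 sorted lymphocyte populations was prepared with a QuantSeq FWD kit, which reads transcripts from their 3-prime ends, so that counts do not scale with transcript length, per the labels' protocols. The deposited file of raw counts, made by the authors, was used; the submitters' processing notes name FastQC 0.11.8, STAR, featureCounts, DESeq2 1.38.3 and the build GRCz11. The annotation release, the strand setting and any row filter are not given in the sources used here. Of its 14424 rows 1 counted the gfp transgene (0.0595% of all counts), which stayed in the library totals and was not tested. Symbols came from a table of identifiers, which named 13909 of 14423 genes. The deposited normalised tables were not used.

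CPM were computed over all rows. The test was that of edgeR 4.0.16 (R 4.3.3), with scaling by TMM (factors 0.699 to 1.32), 1 quasi-likelihood fit with robust moderation of 19 group means over all 53 libraries, quasi-likelihood F tests, and Benjamini-Hochberg adjustment over 14423 genes within each of 25 comparisons, with a threshold of 0.05. Requiring 10 counts or more in 3 or more libraries took away 0 rows. Comparisons were made within a line or as a mean over lines where the lines allowed it. The SE given with a log2 difference is its absolute size over the square root of its F statistic. Where a side is at 0, that value is no standard error of a measured size. The test was tried first on simulated data, where it recovered 58% of 4-fold and 100% of 16-fold changes set between T Stage II and B Stage I. Apart from these changes every group was drawn from 1 rate per gene. A gene at 0 in whole groups, such as il7r, was not imitated.

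Where all libraries of a side are at 0 the fitted size rests on edgeR's prior count, so for il7r the report gives a lower bound instead (the fitted sizes stand only in the figure and among the alternatives): the mean CPM of the higher side over the mean CPM of 3 counts in the libraries of the other. Intervals of single libraries are exact (Clopper-Pearson) 95% intervals. The text names il7r, the members of the signalling list, at most 10 of the listed targets and regulators by the smallest p among those called in T Stage II against B Stage I, T Stage IV against T Stage III or between T Stage III and Early T-committed cells, and, of genes with a mean of at least 10 CPM in a cell type, the 5 with the highest and the 2 with the lowest Pearson r with il7r on the log2(CPM + 1) scale. Every other gene, such as lck, zap70, rag2 and the members of the gamma chain family, was named after its values were seen. The gene, the lists and the tests were chosen with earlier results of these data known. The spelling T State III in the labels was read as T Stage III. The alternatives were DESeq2 1.42.0, the earlier edgeR quasi-likelihood method, median-ratio size factors, 2 other filters, a fit of the compared groups alone, single lines, and each library left out in turn. Library totals ran from 7295854 to 18778603 counts, so that 3 counts came to at most 0.411 CPM. Intervals cover counting error only.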

Additional observations from a re-analysis of the deposited data

Results flagged for a closer look

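Of the 5 cell types with 4 to 10 libraries, 1 held a library far from the others. The il7r level of replicate 43 of B Stage II (rag2-cd79a) was 14.5 CPM, with the other 5 libraries at 0 to 0.128 CPM, so that the gap took 0.99 of the whole range. The rule is set to flag about 1 in 20 groups by chance. That rate does not apply to B Stage II, where 4 of 6 libraries were at 0 and any library with more counts would stand apart. B Stage I, at 0 in all 6 libraries, had no range and could not be flagged. Replicate 43 held the highest sums of T cell, myeloid and erythroid markers of B Stage II. The myeloid sum includes SPI1, a factor gene of B cells too, at 258 to 1115 CPM in that stage. The part of cells with these markers in the il7r count was not tested. B Stage III, where replicate 17 was at 35.6 CPM, has 3 libraries and was not tested in this way.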

How the results depend on the processing

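Every call of T Stage I or T Stage II against B Stage I or thymic B cells was kept under all alternatives tried, namely median-ratio size factors, no filter, a filter of at least 50 counts, DESeq2, a fit of the compared groups alone, single lines, the earlier edgeR method and each library left out. The earlier edgeR method and the single lines were chosen after seeing the data. Median-ratio factors and the filters changed no call and no sign of il7r. With the earlier edgeR method the calls were lost for T Stage II against Early B-committed cells (log2 difference 13.76), T Stage III (4.7), T Stage IV (4.98) and Early T-committed cells (3.61) against thymic B cells, and Early T-committed cells against those committed to B (12.27). The last was also lost in a fit of its own groups (12.26) and with the difference between lines in thymic B cells taken away (3.65). Within single lines the call was lost for T Stage II against Early B-committed cells in rag2-cd79a (13.24) and for Early T-committed against thymic B cells in lck-cd79b (2.8). DESeq2 lost T Stage III (4.83) and T Stage IV (5.14) against thymic B cells. It added B Stage II against B Stage I (18.12), B Stage III against B Stage II (8.49), thymic B cells against B Stage II (-18.77) and thymic B cells of lck against rag2 lines (21.93). A fit of the compared groups alone gave no value for 6 comparisons in which il7r was not retained there: Early B-committed cells and B Stage I, B Stage II against B Stage I, B Stage III against B Stage II, thymic B cells against B Stage I and B Stage II, and thymic B cells of lck against rag2 lines. The sizes against Early B-committed cells, B Stage I and thymic B cells of the rag2 lines, all at 0, depend on how a test treats zeros and are no measured folds. The causes were not tested.

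With each library left out in turn, the log2 difference ran from 4.13 to 10.55 for T Stage III, from 4.08 to 10.83 for T Stage IV and from 3.07 to 8.26 for Early T-committed cells against thymic B cells. It ran from -2.04 to 10.34 for B Stage III against B Stage II, from -0.65 to 0.67 for T Stage IV against T Stage III, from -0.27 to 0.57 and from -0.46 to 0.89 for T Stage III and T Stage IV against Early T-committed cells, from -1.67 to 0.02 for Early T-committed cells of lck-cd79b against lck-cd79a, and from -7.53 to 7.52 for the difference between the lck lines in Early T-committed against thymic B cells. The counts of all genes called moved by over 1.5 times in many comparisons: DESeq2 called 880 genes between T Stage II and T Stage I where edgeR called 0, 2044 for T Stage II against B Stage I where edgeR called 842, and 4616 for T Stage II against thymic B cells where edgeR called 1439. No paired analysis was possible because the labels do not say which libraries came from the same fish. The sample number in the titles is a running number, different in each library, and the fit treated all libraries as independent. The labels name no batch, and sample numbers run on within a line, so line and batch cannot be told apart. Taken as 3 counts, a count of 0 allows up to 0.387 CPM in the shallowest of the libraries at 0.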
